A study of Mus musculus with 4 samples.

Results

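The 39 protein-coding Hox genes of the mouse were followed in sorted cells of the femoral periosteum, the membrane that covers the bone. Members were the rows typed as protein coding whose symbol is Hox, a cluster letter from a to d and a paralogue number, which gave 39 of the 47643 genes in the table. Cluster A on chromosome 6 held 11 of them, cluster B on chromosome 11 held 10, cluster C on chromosome 15 held 9 and cluster D on chromosome 2 held 9. Both groups came from the same mice, which carried 1 allele of the Sox9CreErt2 driver (a tamoxifen-inducible Cre at the Sox9 locus) and 1 allele of the Td-Tomato reporter at the ROSA26 locus. All mice received 3 intraperitoneal injections of 100 µL tamoxifen at 20 mg/mL in corn oil, 48 h apart, and the uninjured femora were taken 2 weeks after the last injection. TdTomato-positive cells, in 2 libraries, had expressed Sox9 around the time of tamoxifen or descend from such cells. TdTomato-negative cells, in 2 libraries, were the other cells released from the same diaphyses by 2 h of liberase digestion. About 10000 cells of each kind came from 18 femora of 9 mice, over 2 collections. By their titles, each library came from 1 collection, so each TdTomato-positive library has a TdTomato-negative partner. The deposited values do not show which libraries are partners, so the comparison run here leaves this pairing out. Age and sex of the mice, and any further sort marker, were not given in the sources used here. Comparing the groups asks how periosteal cells of the Sox9 lineage differ from their neighbours on the same bone surface. Libraries of both groups, the positive ones included, also held many reads of blood cell markers, as given below. With pooled mice and 2 libraries a group, p-values measure only the spread between these libraries.

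Hox genes encode homeodomain transcription factors that give embryonic segments and limb levels their identity, and many mesenchymal cells of the adult skeleton keep the Hox code of the place where they arose. They lie in clusters in the order of their paralogue numbers, with low numbers used toward the head and high numbers toward the tail and the tips of the limbs. In the mouse hindlimb, paralogue group 10 is needed for the femur, group 11 for the tibia and fibula, and group 13 for the foot. Genes of cluster A, Hoxa9 above all, and Hoxb4 are also known for their roles in stem and progenitor cells of the blood.

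By counts not corrected for gene length, most reads of the Hox clusters came from paralogue groups 9 and 10. The homeoboxes of 4 of these genes are therefore shown to let their likeness be seen. Each is the 180 bases that encode the homeodomain, 5′ to 3′ in the sense of the gene, from GENCODE vM21 transcripts on GRCm38 (the mm10 assembly). Capitals mark the codons of the conserved stretch of the third helix, which contacts DNA. The coordinates are chr15:102983930-102984109 on the plus strand for Hoxc9 and chr6:52232554-52232733 on the minus strand for Hoxa10. They are chr15:102970848-102971027 on the plus strand for Hoxc10 and chr2:74694141-74694320 on the plus strand for Hoxd10.
Hoxc9: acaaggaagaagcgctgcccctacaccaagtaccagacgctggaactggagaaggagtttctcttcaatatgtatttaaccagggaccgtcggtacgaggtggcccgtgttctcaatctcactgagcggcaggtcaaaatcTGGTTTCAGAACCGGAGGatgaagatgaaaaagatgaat
Hoxa10: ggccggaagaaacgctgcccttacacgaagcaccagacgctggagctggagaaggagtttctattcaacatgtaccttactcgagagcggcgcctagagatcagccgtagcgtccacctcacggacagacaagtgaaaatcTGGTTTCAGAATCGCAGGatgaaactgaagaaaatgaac
Hoxc10: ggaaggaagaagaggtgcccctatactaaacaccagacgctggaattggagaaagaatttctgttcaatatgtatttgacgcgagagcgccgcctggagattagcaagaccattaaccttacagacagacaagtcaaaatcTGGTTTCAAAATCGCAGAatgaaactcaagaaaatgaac
Hoxd10: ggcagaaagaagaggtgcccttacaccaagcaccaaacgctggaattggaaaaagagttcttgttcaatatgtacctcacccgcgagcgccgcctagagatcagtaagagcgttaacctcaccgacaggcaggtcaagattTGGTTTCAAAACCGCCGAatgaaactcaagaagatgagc

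A homeobox was found in all 39 members, each time within a single exon. Between members of the same paralogue group the homeoboxes were identical at a median of 80.6% of bases (range 67.2 to 93.9% over 42 pairs), against a median of 60.6% (46.1 to 88.9%) over the 699 pairs from different groups. Hoxa10 and Hoxc10 were identical at 80.6% of bases, Hoxa10 and Hoxd10 at 78.9%, and Hoxc10 and Hoxd10 at 82.8%. The longest identical run between any homeoboxes was 52 bases, shorter than the 75-nucleotide reads. Across whole exons, the only members that shared a stretch of 75 bases were Hoxc5 with Hoxc10 and Hoxd3 with Hoxd4, pairs whose annotated exons overlap. The exons of 16 of the 39 members overlap those of some other gene, and for 10 of them a gene on the opposite strand is involved. Whether reads were counted by strand was not given in the sources used here, so reads of these members and of their overlapping partners cannot be told apart. The overlap exceeds 50% of exon bases only for Hoxb3, with Hoxb3os, and for Hoxd3 and Hoxd4, with other genes of cluster D.

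Depth implied by the deposited values was 32.0 and 41.6 M reads in TdTomato+ libraries and 17.0 and 74.0 M in TdTomato− libraries, and libraries are named here by these depths. Of each group, the value of the library of lower depth is given first. Values per gene are RPKM, reads per kilobase of genomic span at equal depth, introns included, so members with long introns have low values. The TdTomato− library of 74.0 M reads stood apart in its cell type markers. The skeletal lineage markers (8 of 8) summed to 1682 and 223.5 RPKM in TdTomato+ libraries and to 270.0 and 0.860 RPKM in TdTomato− libraries, with Twist2 at 0 in that library. Chondrocyte markers (6 of 6) summed to 313 and 123 RPKM in TdTomato+ libraries and to 17.4 and 0.0444 RPKM in TdTomato− libraries, with Acan and Matn3 at 0 in the library of 74.0 M reads. In sum, the markers of blood cells did not show this drop. Not every single marker followed its sum, as Gata2 was lower at 74.0 M than at 17.0 M reads and Cd34 was unsettled in these libraries. The 6 leukocyte markers summed to 88.1 and 36.8 RPKM in TdTomato+ libraries and to 94.3 and 236 RPKM in TdTomato− libraries. The 6 neutrophil markers summed to 8734 and 7165 RPKM in TdTomato+ libraries and to 10231 and 24392 RPKM in TdTomato− libraries. The 6 blood progenitor markers summed to 209 and 807 RPKM in TdTomato+ libraries and to 218 and 510 RPKM in TdTomato− libraries, and no leukocyte, neutrophil or progenitor marker was at 0 in any library. Apart from Acta1, whose TdTomato− values are unsettled, each muscle marker was lowest in the library where the skeletal sum was lowest. The 6 muscle markers summed to 172 and 113 RPKM in TdTomato+ libraries and to 227 and 0.808 RPKM in TdTomato− libraries, with Myf5, Myod1 and Pax7 at 0 in the library of 74.0 M reads. The 6 endothelial markers summed to 2.17 and 3.76 RPKM in TdTomato+ libraries and to 2.67 and 0.581 RPKM in TdTomato− libraries, again lowest in the library of 74.0 M reads. All lists but the endothelial one hold genes whose values within a group could be assigned to either library, and these sums take the assignment whose libraries differ less. For skeletal and chondrocyte markers all TdTomato− values were settled, so only the TdTomato+ sums can move. Whatever the assignment, a TdTomato+ sum lies between 172.9 and 2180 RPKM for skeletal markers and between 103.1 and 345 RPKM for chondrocyte markers. Which TdTomato+ library holds the larger skeletal sum is therefore not settled. Of the muscle markers only Acta1 is unsettled in TdTomato− libraries, at 0.0892 to 883 RPKM. It decides which of these libraries holds the lower muscle sum. The part of these cell mixtures in the results below was not tested, and in bulk samples fewer cells of a type and less RNA per cell cannot be told apart.

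Hox transcripts were read in every library, and most in the TdTomato-positive library of 32.0 M reads. All members together took 218.6 and 57.2 RPM (reads for every 1 M reads of the library) in TdTomato+ libraries and 75.3 and 9.29 RPM in TdTomato− libraries. The group ranges overlap, since the TdTomato− library of 17.0 M reads lies above the TdTomato+ library of 41.6 M reads. Of the 39 members, 32 had reads in some library and 19 had at least 10 reads in at least 2 libraries, the filter on low values used below. Another 13 had reads and did not pass it, and 7, among them Hoxa13, Hoxb13, Hoxd11 and Hoxd12, had no read in any library. For a member without reads, a count of 3 reads sets the upper limit, which for Hoxd11 is 0.0126 and 0.00967 RPKM in TdTomato+ libraries and 0.0237 and 0.00543 RPKM in TdTomato− libraries. Such limits, and the intervals given below, cover counting error only, since reads without molecular identifiers are not independent molecules.

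**Figure D1:**
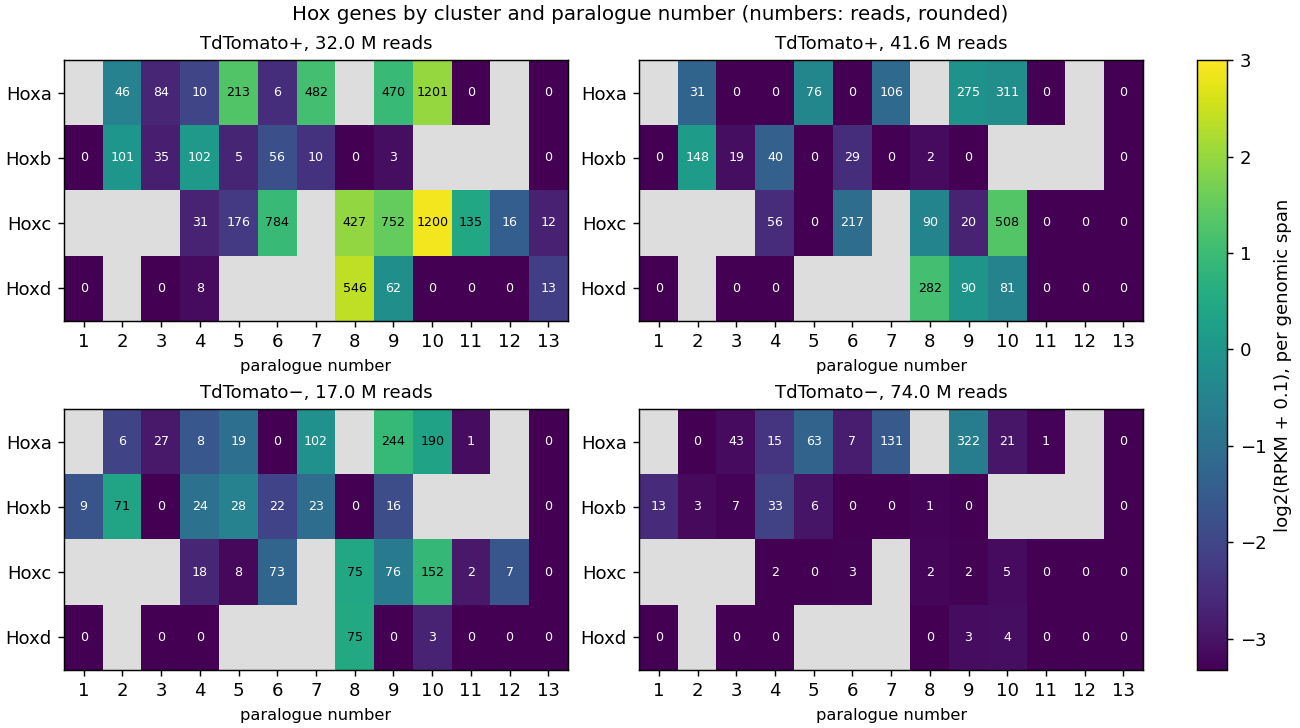
Reads of each Hox gene (numbers, rounded) by cluster (rows) and paralogue number (columns) in the 4 libraries, TdTomato-positive above and TdTomato-negative below. Colour gives log2(RPKM + 0.1) per genomic span and grey marks positions with no gene shown. The brightest squares lie at paralogue numbers 8 to 10 of the TdTomato+ library of 32.0 M reads, and the Hoxc and Hoxd rows hold at most 5 reads a gene in the TdTomato− library of 74.0 M reads.

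No Hox gene passed the test between the groups. By the authors' deposited table, none (0 of 39) had a step-up FDR under 0.05, all 39 had an FDR of 1.00, and over all 47643 genes 0.0063% passed. At an unadjusted p under 0.05, the authors' deposited table held 3 members, Hoxc10, Hoxd8 and Hoxd9, all higher in positive cells, where 0.598% of all genes were called in that direction. It held no member lower at that p, where 0.296% of all genes were. Among the 17176 genes that passed the filter on reads, 1.58% were higher at an unadjusted p under 0.05 in the authors' deposited table. Limma on log2(RPKM + 1) also called 0 of the 19 members that passed the filter and 0% of all genes that did. At an unadjusted p under 0.05 limma held 2 members, Hoxa2 and Hoxd9, beside 7.54% of all genes that passed the filter; both were higher in positive cells, as were 4.64% of those genes. Both entered this fit through the positive libraries alone, where they are high, so the filter bears on these calls. With no filter on reads limma held 1 member, Hoxd9, at an unadjusted p under 0.05, beside 3.31% of all 47643 genes. Both limma values had an adjusted p of 0.655.

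The libraries themselves were apart for a minority of members. Both TdTomato+ libraries exceeded both TdTomato− libraries in 7 of the 19 members that passed the filter (Hoxa2, Hoxa5, Hoxb3, Hoxc6, Hoxc10, Hoxd8 and Hoxd9), and 15.5% of all genes that passed it did the same. Both lay below in 0 of the 19, against 13.2% of all genes that passed the filter, and the libraries overlapped in 12. Of the 7, Hoxa2, Hoxb3 and Hoxd9 reached the filter through the positive libraries alone, so their place above the negative ones is in part set by the filter. Without the filter on reads, 7 of 39 members lay above, against 6.85% of all genes, and 2 lay below, against 6.33%. Those below were Hoxa11, with 0 and 0 reads in TdTomato+ libraries and 1 and 1 in TdTomato− libraries, and Hoxb1, with 0 and 0 reads in TdTomato+ libraries and 9 and 13 in TdTomato− libraries. The TdTomato+ library of 32.0 M reads held the highest RPKM in 21 members, the TdTomato− library of 17.0 M reads in 7 and the TdTomato+ library of 41.6 M reads in 4. The TdTomato− library of 74.0 M reads held the highest value in 0 members. Against the TdTomato− library of 17.0 M reads alone, the TdTomato+ library of 41.6 M reads was higher in 10 members and lower in 18.

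Paralogue group 10, whose genes pattern the femur, held the strongest Hox gene of the table. Hoxc10 (chr15:102966796-102971894, mm10, plus strand, with the deposited end 1 base past the GENCODE end, as for all members) was read at 7.37 and 2.40 RPKM in TdTomato+ libraries and at 1.76 and 0.0133 RPKM in TdTomato− libraries. These values rest on 1200 and 508 reads in positive cells against 152 and 5 reads in negative cells. Both TdTomato+ libraries exceeded both TdTomato− libraries, and the negative libraries differed by a larger factor from each other than the positive ones did. The group means were 4.88 ± 3.52 RPKM in positive cells and 0.885 ± 1.23 RPKM in negative cells (SD, n = 2 each). In the authors' deposited table the difference of Hoxc10, converted from natural log to log2, was 3.19, with a p of 0.0263 and an FDR of 1.00. Its level in that table, the signal times the span of the gene, was 146.8 in positive cells and 55.4 in negative cells. That signal was inferred to be divided by depth a second time, so libraries of low depth weigh more in levels than in mean RPKM. Limma on log2(RPKM + 1) gave Hoxc10 a log2 difference of 1.67 with an SE of 0.71 and an adjusted p of 0.655.

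Hoxa10, the cluster A gene of the same group, is known for both femur patterning and the growth of myeloid progenitors. Hoxa10 (chr6:52231197-52240855, mm10, minus strand) was read at 3.89 and 0.774 RPKM in TdTomato+ libraries and at 1.16 and 0.0294 RPKM in TdTomato− libraries, from 1201 and 311 reads against 190 and 21. The groups overlap, as the TdTomato− library of 17.0 M reads lies between the positive libraries. The log2 ratio of mean RPKM + 0.1 was 1.81 with all libraries and 0.33 without the TdTomato+ library of 32.0 M reads. In the authors' deposited table its log2 difference was 2.17 with a p of 0.128 and an FDR of 1.00, and its level was 73.0 in positive cells and 38.0 in negative cells. Hoxd10, the cluster D gene of the group, had 0 and 81 reads in TdTomato+ libraries and 3 and 4 reads in TdTomato− libraries and did not pass the filter. It was thus the only member of group 10 whose reads came almost wholly from the TdTomato+ library of 41.6 M reads.

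Paralogue group 9 held the other large share of Hox reads, and its gene in cluster A was read in all 4 libraries. Hoxa9, the Hox gene best known from blood stem cells and leukaemia (chr6:52223100-52231090, mm10, minus strand), was read at 1.84 and 0.827 RPKM in TdTomato+ libraries and at 1.80 and 0.545 RPKM in TdTomato− libraries. The reads were 470 and 275 in positive cells and 244 and 322 in negative cells, and the group ranges overlap almost fully. Per genomic span Hoxa9 was the strongest Hox gene in each negative library, by a narrow margin over Hoxc10 at 17.0 M reads. Per exon base Hoxc10 was stronger there, at 4.69 exonic RPKM against 2.58 for Hoxa9, while Hoxa9 stayed first at 74.0 M reads with 0.780 exonic RPKM. Its log2 difference in the authors' deposited table was 0.24 with a p of 0.868 and an FDR of 1.00, while its level was 41.5 in positive cells and 60.3 in negative cells. The sign of the log difference and that of the ratio of levels thus disagree for Hoxa9, as they do for 8 of the 39 members. These measures have unlike zeros, as a gene with no reads stands at -0.39 in log2 ratio and at -0.04 in log2 difference. For Hoxa9 the log2 ratio of group means of RPKM + 0.1 was 0.17 with all libraries and 1.15 without the TdTomato− library of 17.0 M reads.

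Hoxc9, which patterns thoracic segments and their motor neurons (chr15:102976439-102985100, mm10, plus strand), was read at 2.72 and 0.0555 RPKM in TdTomato+ libraries and at 0.517 and 0.00312 RPKM in TdTomato− libraries. The reads were 752 and 20 in positive cells and 76 and 2 in negative cells, so a single library of each group carries nearly all of them, and its log2 ratio of mean RPKM + 0.1 was 2.05 with all libraries and -1.21 without the TdTomato+ library of 32.0 M reads. The authors' deposited table gave it a log2 difference of 1.35 with a p of 0.343 and an FDR of 1.00, and its level was 46.0 in positive cells and 18.9 in negative cells. Hoxd9 (chr2:74697727-74700209, mm10, plus strand), which acts with other group 9 genes in limb patterning, was read at 0.782 and 0.872 RPKM in TdTomato+ libraries and at 0 and 0.0163 RPKM in TdTomato− libraries, from 62 and 90 reads against 0 and 3. It was the one named member whose positive libraries lay close together and whose negative libraries both lay near 0. In the authors' deposited table its log2 difference was 3.06 with a p of 0.0323 and an FDR of 1.00, and its level was 25.5 in positive cells and 3.73 in negative cells. A gene with no reads at all stands at a level of 2.77 in positive cells and 3.62 in negative cells in the authors' deposited table, so the negative level of Hoxd9 is close to that of no reads. Limma gave Hoxd9 a log2 difference of 0.86 with an SE of 0.16, an unadjusted p of 0.00398 and an adjusted p of 0.655, in a fit that it entered through the positive libraries alone. Hoxb9 had 3 and 0 reads in TdTomato+ libraries and 16 and 0 in TdTomato− libraries.

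The genes of the trunk, paralogue numbers 4 to 8, held the next largest share of reads, a ranking that changes in summed RPKM, given below. Hoxd8 (chr2:74704615-74707934, mm10, plus strand) was read at 5.15 and 2.04 RPKM in TdTomato+ libraries and at 1.33 and 0 RPKM in TdTomato− libraries, from 546 and 282 reads against 75 and 0. Both TdTomato+ libraries exceeded both TdTomato− libraries. Its log2 difference in the authors' deposited table was 3.11 with a p of 0.0310 and an FDR of 1.00, and its level was 107.9 in positive cells and 42.8 in negative cells. Hoxc8, which patterns thoracic vertebrae and ribs (chr15:102990607-102994112, mm10, plus strand), was read at 3.81 and 0.617 RPKM in TdTomato+ libraries and at 1.26 and 0.00771 RPKM in TdTomato− libraries. The reads were 427 and 90 in positive cells and 75 and 2 in negative cells, the groups overlap, and the log2 ratio of mean RPKM + 0.1 was 1.66 with all libraries and -0.03 without the TdTomato+ library of 32.0 M reads. The authors' deposited table gave Hoxc8 a log2 difference of 2.09 with a p of 0.146 and an FDR of 1.00, and its level was 69.9 in positive cells and 40.8 in negative cells.

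Hoxc6, a gene of thoracic identity (chr15:102998257-103011882, mm10, plus strand), was read at 1.80 and 0.383 RPKM in TdTomato+ libraries and at 0.316 and 0.00298 RPKM in TdTomato− libraries, from 784 and 217 reads against 73 and 3. The positive libraries lay above the negative ones, the lower of them by a narrow margin. In the authors' deposited table its log2 difference was 2.17 with a p of 0.127 and an FDR of 1.00, and its level was 35.5 in positive cells and 12.9 in negative cells. Hoxa5, needed for lung and cervical patterning (chr6:52201754-52204588, mm10, minus strand), was read at 2.35 and 0.645 RPKM in TdTomato+ libraries and at 0.395 and 0.300 RPKM in TdTomato− libraries, from 213 and 76 reads against 19 and 63. Its positive libraries also lay above its negative ones, and here the negative libraries were close to each other. Its log2 difference in the authors' deposited table was 1.56 with a p of 0.278 and an FDR of 1.00, and its level was 47.3 in positive cells and 17.3 in negative cells.

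Hoxa7 (chr6:52214491-52221855, mm10, minus strand) was read at 2.05 and 0.346 RPKM in TdTomato+ libraries and at 0.816 and 0.240 RPKM in TdTomato− libraries, from 482 and 106 reads against 102 and 131. The groups overlap, and the log2 ratio of mean RPKM + 0.1 was 1.05 with all libraries and -0.49 without the TdTomato+ library of 32.0 M reads. Of the exon bases of Hoxa7, 20.4% are shared with the antisense gene Hoxaas3. The authors' deposited table gave it a log2 difference of 0.77 with a p of 0.590 and an FDR of 1.00, and its level was 39.0 in positive cells and 29.3 in negative cells. Hoxb4, known for expanding blood stem cells when overexpressed (chr11:96318267-96321639, mm10, plus strand), was read at 0.947 and 0.285 RPKM in TdTomato+ libraries and at 0.419 and 0.132 RPKM in TdTomato− libraries, from 102 and 40 reads against 24 and 33. The groups overlap in the same order of libraries as for Hoxa7, and the log2 ratio of mean RPKM + 0.1 was 0.93 with all libraries and 0.0355 without the TdTomato+ library of 32.0 M reads. In the authors' deposited table the log2 difference of Hoxb4 was 0.83 with a p of 0.562 and an FDR of 1.00, and its level was 21.0 in positive cells and 16.9 in negative cells.

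Among the head-end genes, paralogue numbers 1 to 3, Hoxb2 was the strongest. Hoxb2, a gene of hindbrain and second-arch patterning (chr11:96350525-96354013, mm10, plus strand), had values in positive cells that ranged from 0.760 to 1.20 RPKM, and which belongs to which positive library could not be settled. In TdTomato− libraries it was read at 1.20 and 0.0116 RPKM, from 71 and 3 reads. The groups overlap under the assignment with the closer values, 0.902 and 1.02 RPKM in positive cells, because the TdTomato− library of 17.0 M reads lies above both. Its log2 difference in the authors' deposited table was 1.44 with a p of 0.316 and an FDR of 1.00, and its level was 29.1 in positive cells and 38.9 in negative cells. Its log2 ratio of mean RPKM + 0.1 was 0.59 with all libraries and 3.25 without the TdTomato− library of 17.0 M reads. The antisense gene Hoxb3os covers 27.3% of the exon bases of Hoxb2. The other 7 members that passed the filter (Hoxa2, Hoxa3, Hoxa4, Hoxb3, Hoxb6, Hoxb7 and Hoxc4) reached at most 0.596 RPKM in any library, and in the authors' deposited table their log2 differences lay between -0.72 and 1.72 with a p between 0.228 and 0.991. Hoxa2, the gene of the second pharyngeal arch, gave that highest value, with 46 and 31 reads in TdTomato+ libraries against 6 and 0 in TdTomato− libraries.

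The genes at the tail end of the clusters, which pattern the limb beyond the femur, had few reads. The 9 members with paralogue numbers 11 to 13 took 176 and 0 reads in TdTomato+ libraries and 10 and 1 reads in TdTomato− libraries. Hoxc11, 1 of the genes that shape the lower leg, made up most of these, with 135 and 0 reads in TdTomato+ libraries and 2 and 0 reads in TdTomato− libraries. Hoxc12 had 16 and 0 reads in TdTomato+ libraries and 7 and 0 reads in TdTomato− libraries. Hoxc13 had 12 and 0 reads in TdTomato+ libraries and Hoxd13 had 13 and 0, with none of either in TdTomato− libraries. None of these 9 members passed the filter. Expressed as a share, groups 11 to 13 made up 2.52% (Wilson 95% interval 2.18 to 2.91%) of Hox reads in the TdTomato+ library of 32.0 M reads and 0% in that of 41.6 M reads. There, with 0 of 2381 reads, the Wilson upper limit is 0.161%, and the limit set by 3 reads is 0.126%. In the TdTomato− library of 17.0 M reads the share was 0.782% (0.425 to 1.43%) and in that of 74.0 M reads it was 0.146% (0.0257 to 0.820%).

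Along the clusters, groups 9 and 10 together held a similar share of Hox reads in the 4 libraries, but the split between them differed. Together they held 52.8% (51.6 to 54.0%) and 54.0% (52.0 to 56.0%) of Hox reads in TdTomato+ libraries and 53.3% (50.5 to 56.0%) and 52.0% (48.2 to 55.7%) in TdTomato− libraries. Group 10 alone held 34.4% (33.3 to 35.5%) and 37.8% (35.9 to 39.8%) of Hox reads in TdTomato+ libraries and 27.0% (24.6 to 29.5%) and 4.37% (3.08 to 6.17%) in TdTomato− libraries. Group 9 alone held 18.4% (17.5 to 19.4%) and 16.2% (14.7 to 17.7%) in TdTomato+ libraries and 26.3% (23.9 to 28.8%) and 47.6% (43.9 to 51.3%) in TdTomato− libraries. The share of group 10 was thus lowest, and that of group 9 highest, in the TdTomato− library of 74.0 M reads, where Hoxa9 gave 322 of the 327 reads of group 9. Groups 4 to 8 held 40.9% and 37.7% in TdTomato+ libraries and 37.1% and 38.3% in TdTomato− libraries. Groups 1 to 3 held 3.80% (3.37 to 4.27%) and 8.32% (7.27 to 9.49%) in TdTomato+ libraries and 8.81% (7.40 to 10.5%) and 9.63% (7.62 to 12.04%) in TdTomato− libraries, with the TdTomato+ library of 32.0 M reads below the others. These are shares of reads, not corrected for gene length, they take the closer assignment for Hoxb2, and they rest on 6985 and 2381 Hox reads in positive cells and 1279 and 687 in negative cells. In summed RPKM, groups 9 and 10 held 16.6 and 5.54 in TdTomato+ libraries and 5.47 and 0.624 in TdTomato− libraries. Groups 4 to 8 held 16.9 and 4.48 RPKM in TdTomato+ libraries and 5.95 and 0.854 RPKM in TdTomato− libraries. On that scale groups 9 and 10 were above groups 4 to 8 only in the TdTomato+ library of 41.6 M reads.

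**Figure D2:**
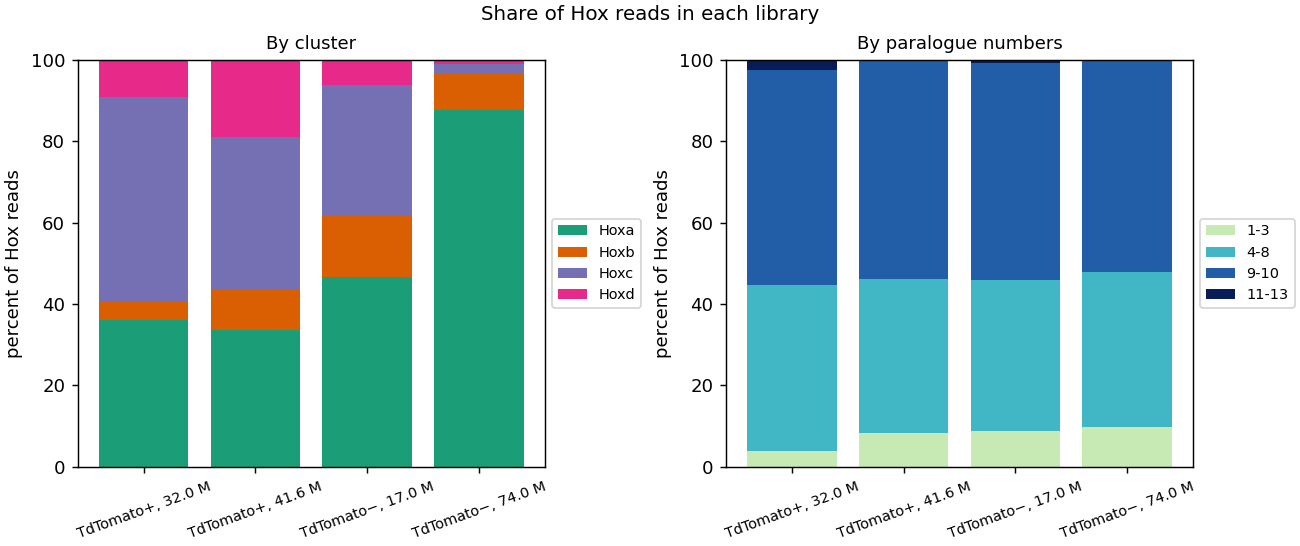
Percent of Hox reads in each library by cluster (left panel) and by block of paralogue numbers (right panel), TdTomato-positive libraries left of TdTomato-negative ones. Groups 9 and 10 together hold 52.0 to 54.0% of Hox reads in each library, while cluster A holds 36.0% and 33.6% in TdTomato+ libraries and 46.7% and 87.8% in TdTomato− libraries.

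The division by cluster did differ between libraries. Cluster A held 36.0% (34.8 to 37.1%) and 33.6% (31.7 to 35.5%) of Hox reads in TdTomato+ libraries and 46.7% (44.0 to 49.4%) and 87.8% (85.1 to 90.0%) in TdTomato− libraries. Cluster C held 50.6% (49.4 to 51.8%) and 37.4% (35.5 to 39.4%) in TdTomato+ libraries and 32.1% (29.6 to 34.7%) and 2.04% (1.22 to 3.39%) in TdTomato− libraries. Cluster B held 4.46% (3.99 to 4.96%) and 9.997% (8.85 to 11.3%) in TdTomato+ libraries and 15.1% (13.2 to 17.2%) and 9.13% (7.23 to 11.6%) in TdTomato− libraries. Cluster D held 9.00% (8.36 to 9.70%) and 19.0% (17.5 to 20.7%) in TdTomato+ libraries and 6.10% (4.91 to 7.55%) and 1.02% (0.494 to 2.09%) in TdTomato− libraries. For clusters A, C and D these shares of reads, not corrected for gene length, lie in positive libraries on 1 side of those in negative libraries. For cluster B they overlap. In summed RPKM, cluster C held 17.5 of 36.8 and 3.53 of 11.4 in TdTomato+ libraries, and 4.18 of 13.3 and 0.0286 of 1.58 in TdTomato− libraries. By that measure the share of cluster C overlaps between the groups by a narrow margin. The positive libraries also differ from each other beyond counting error in clusters B, C and D. Reads of cluster A over reads of cluster C came to 0.711 and 0.897 in TdTomato+ libraries and to 1.45 and 43.1 in TdTomato− libraries. In the TdTomato− library of 74.0 M reads this is 603 reads of cluster A against 14 of cluster C, and that library also held the 0.860 RPKM of summed skeletal markers given above.

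In RPM, cluster D was the only cluster whose TdTomato+ libraries both exceeded both TdTomato− libraries, at 19.7 and 10.9 against 4.60 and 0.0946. Hoxd8 alone gave 546 of 629 and 282 of 453 cluster D reads in TdTomato+ libraries, and 75 of 78 and 0 of 7 in TdTomato− libraries. Cluster C took 110.6 and 21.4 RPM in TdTomato+ libraries and 24.2 and 0.189 in TdTomato− libraries, which overlap by a narrow margin. Cluster A took 78.6 and 19.2 RPM in TdTomato+ libraries and 35.2 and 8.15 in TdTomato− libraries, and cluster B took 9.75 and 5.72 in TdTomato+ libraries and 11.4 and 0.848 in TdTomato− libraries. The number of members with at least 10 reads followed the same lines in clusters B, C and D, but not in cluster A. This count is not corrected for depth, and 10 reads are easier to reach in a deeper library. Cluster C had 9 and 5 such members of 9 in TdTomato+ libraries and 5 and 0 in TdTomato− libraries, and cluster D had 3 and 3 of 9 in TdTomato+ libraries and 1 and 0 in TdTomato− libraries. Cluster A had 7 and 5 of 11 in TdTomato+ libraries and 5 and 6 in TdTomato− libraries, and cluster B had 5 and 4 of 10 in TdTomato+ libraries and 6 and 2 in TdTomato− libraries. Cluster A therefore stayed readable in the TdTomato− library of 74.0 M reads, through Hoxa9 with 322 reads, Hoxa7 with 131, Hoxa5 with 63 and Hoxa3 with 43.4.

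**Figure D3:**
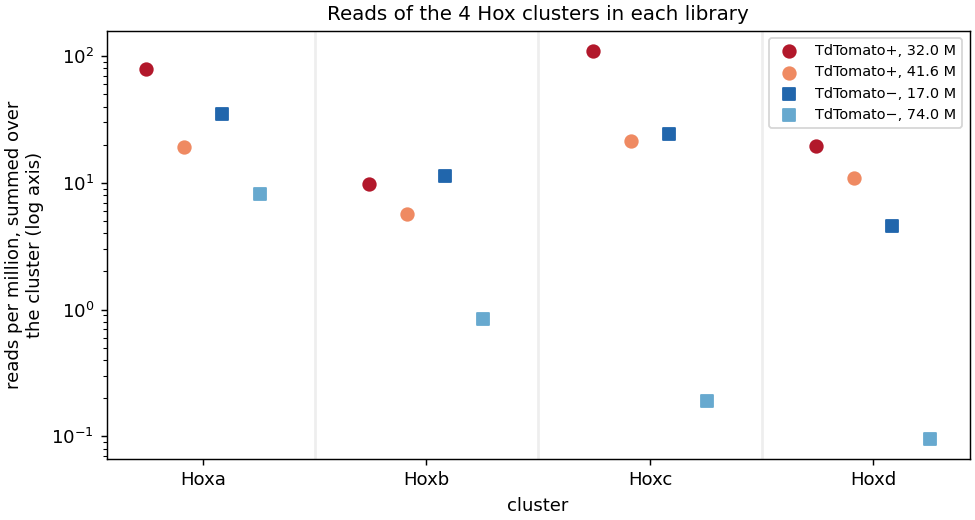
RPM (log axis) summed over the members of each Hox cluster in each library, TdTomato-positive as circles left of TdTomato-negative as squares. The circles lie above both squares in Hoxd, at 19.7 and 10.9 against 4.60 and 0.0946, and the groups overlap in the other clusters.

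The authors' differences varied within each cluster, and their medians depend on which members are counted. Over the 19 members that passed the filter, the median log2 ratio of levels, positive over negative, was 0.41 in the authors' deposited table, against -0.26 over all 17176 genes that passed. A gene with no reads stands at -0.39 on this scale in the authors' deposited table. On group means of RPKM + 0.1, without the second division by depth, the median over the 19 members was 1.05 with all libraries. On that scale it was 0.22 without the TdTomato+ library of 32.0 M reads, 1.77 without that of 41.6 M, 2.00 without the TdTomato− library of 17.0 M reads and 0.50 without that of 74.0 M. Over all 39 members the median log2 ratio was -0.25 in the authors' deposited table, against -0.39 over all genes. By cluster, the median log2 ratio in the authors' deposited table was 0.41 over 7 members of cluster A that passed the filter, -0.22 over 5 of cluster B, 1.28 over 5 of cluster C and 2.05 over 2 of cluster D. The median log2 difference in the authors' deposited table was 0.77 in cluster A, 0.51 in cluster B, 2.09 in cluster C and 3.08 in cluster D, against 0.02 over all genes that passed the filter and 1.35 over the 19 members. The median of cluster D rests on Hoxd8 and Hoxd9 alone. Over all members, with or without reads, the median log2 difference in the authors' deposited table was 0.13 in cluster A, -0.01 in cluster B, 1.35 in cluster C and 0.06 in cluster D. Of the 19 members, the log2 difference was above 0 in 16 and below 0 in 3, Hoxa3, Hoxa4 and Hoxb7, none past the test. The medians over the 19 cover members that reached the filter, some of them through positive libraries alone, and carry no test.

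**Figure D4:**
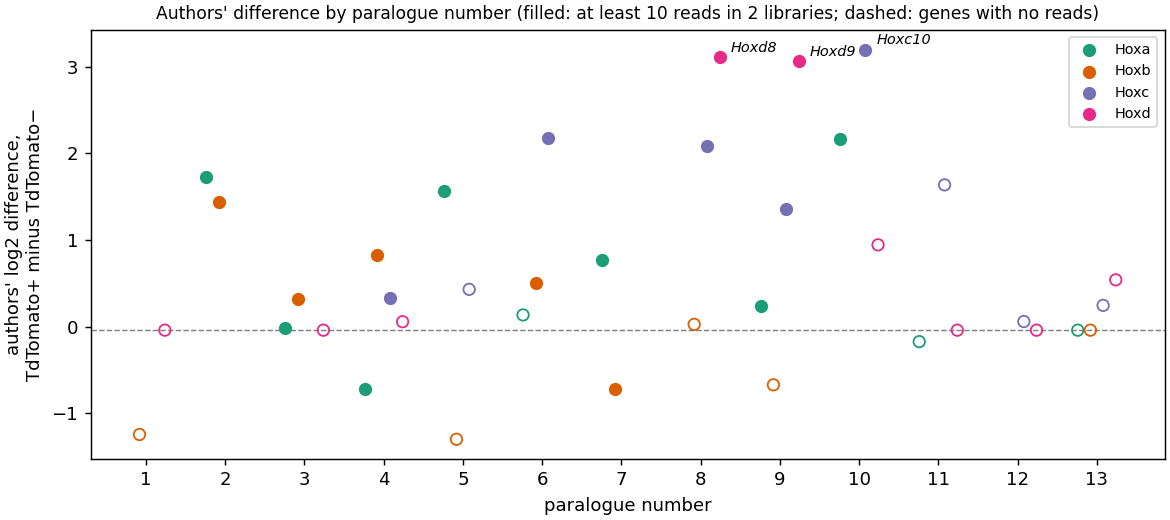
The authors' difference, TdTomato-positive minus TdTomato-negative and converted to log2, for the Hox genes by paralogue number, coloured by cluster; filled points passed the filter of 10 reads in 2 libraries and the dashed line is the value of a gene with no reads. The highest points are Hoxc10 at 3.19, Hoxd8 at 3.11 and Hoxd9 at 3.06, each with an FDR of 1.00, and the members below 0 belong to clusters A and B or have no reads.

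Members with reads that missed the filter had few reads, or had them in few libraries. Hoxc5 had 176 and 0 reads in TdTomato+ libraries and 8 and 0 in TdTomato− libraries, and 166 bases of its exons are shared with Hoxc10. Hoxb5 went the other way, with 5 and 0 reads in TdTomato+ libraries and 28 and 6 in TdTomato− libraries. Hoxa6 had 6 and 0 reads in TdTomato+ libraries and 0 and 7 in TdTomato− libraries. Hoxb8, with 0 and 2 reads in positive cells and 0 and 1 in negative cells, and Hoxd4, with 8 and 0 in positive cells and none in negative cells, complete the account of members with reads.

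The strongest members were nearly the same on another measure of gene length. Per exon base of the GENCODE annotation in place of genomic span, 9 of the 10 strongest members in positive cells were the same, with Hoxc10 first on both scales at 13.0 exonic RPKM in positive cells and 2.36 exonic RPKM in negative cells. Hoxc6, whose introns are long, moved to the third place with 6.18 exonic RPKM in positive cells and 0.901 in negative cells.

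The DNA-binding partners of Hox proteins, the Pbx, Meis and Pknox homeodomain factors, all had reads. All 9 passed the filter, though Pbx4 had 36 and 0 reads in TdTomato+ libraries and 0 and 138 in TdTomato− libraries and Pknox2 had none in the TdTomato+ library of 41.6 M reads. By the authors' deposited table none (0 of 9) had an FDR or an unadjusted p under 0.05, with a median log2 ratio of -0.29. This median lies near the -0.26 over all genes that passed the filter. Of all genes, 0.0063% passed that FDR, and at that p 0.598% were higher and 0.296% lower in positive cells. On group means of RPKM + 0.1 the cofactor median was -0.02 with all libraries, 0.056 without the TdTomato+ library of 41.6 M reads and 0.0625 without the TdTomato− library of 74.0 M reads. The 3 with the highest levels were Pbx2, Meis3 and Pknox1. Meis3 was read at 3.11 and 2.02 RPKM in TdTomato+ libraries and at 1.13 and 0.0651 RPKM in TdTomato− libraries, with both TdTomato+ libraries above both TdTomato− libraries, and had a p of 0.0811 and an FDR of 1.00 in the authors' deposited table. Pknox1 was read at 0.697 and 0.681 RPKM in TdTomato+ libraries and at 0.893 and 1.43 RPKM in TdTomato− libraries, with both positive libraries below, and had a p of 0.629 and an FDR of 1.00 in the authors' deposited table. Pbx2 was read at 2.41 and 0.165 RPKM in TdTomato+ libraries, and its values in negative cells ranged from 0.754 to 14.3 RPKM with the assignment to libraries unsettled.

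Regulators that set or keep Hox expression, among them the Cdx factors and the Trithorax and Polycomb complexes, held no gene past the test. Of 18 such genes 15 passed the filter, the Cdx genes Cdx1, Cdx2 and Cdx4 had no reads in any library, and 0 of 18 had an unadjusted p under 0.05 in the authors' deposited table. At that p, 0.598% of all genes were higher and 0.296% lower in positive cells. The median log2 ratio of the 15 was -0.47 in the authors' deposited table, beside -0.26 over all genes that passed the filter. The 3 with the highest levels were Ring1, a Polycomb ubiquitin ligase, Kdm6b, a demethylase of the Polycomb mark, and Men1, a partner of the Trithorax methyltransferases. Ring1 was read at 9.86 and 5.15 RPKM in TdTomato+ libraries and at 5.33 and 3.25 RPKM in TdTomato− libraries, which overlap. Men1 was read at 4.48 and 1.63 RPKM in TdTomato+ libraries and at 3.57 and 5.92 RPKM in TdTomato− libraries, which overlap as well. Kdm6b ranged from 2.25 to 8.35 RPKM in positive cells and from 0.360 to 20.5 RPKM in negative cells, with the assignment to libraries unsettled.

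Between and around the Hox genes, 46 other genes are annotated within the clusters, and 27 of them had no reads in any library. Only 7 passed the filter, and by the authors' deposited table a single one (1 of 46), the antisense RNA Gm15050 of cluster A, had an unadjusted p under 0.05, at 0.0173 with an FDR of 1.00. Of all genes, 0.598% were higher in positive cells at that p and 0.296% were lower. Gm15050 had 42 and 50 reads in TdTomato+ libraries and 0 and 1 in TdTomato− libraries, or 1.11 and 1.02 RPKM against 0 and 0.0115 RPKM. It thus reached the filter through the positive libraries alone, where it is high. The other genes of highest level in the clusters were the pseudogene Gm11539, between 0.743 and 2.22 RPKM in positive cells and between 0.0393 and 3.45 RPKM in negative cells, and the short RNA Gm27477, with 8 and 0 reads in TdTomato+ libraries and none in TdTomato− libraries. Of the regulatory RNAs known from the clusters, which are named here after their values were seen, Hotairm1 had 81 and 50 reads in TdTomato+ libraries and 17 and 13 in TdTomato− libraries, and Hotair had 2 and 1 reads in positive cells and 1 and 0 in negative cells. The microRNA genes of the clusters, among them Mir10a, Mir10b and Mir196b, had no reads, and libraries of this kind are not made to capture mature microRNAs. The homeobox neighbours of the clusters had few reads, with Evx2 at 29 and 0 reads in TdTomato+ libraries and none in TdTomato− libraries, and Evx1 at 0 and 0 reads in TdTomato+ libraries and 0 and 13 in TdTomato− libraries.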

How the data were processed

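RNA of sorted TdTomato-positive and TdTomato-negative periosteal cells was measured in 4 libraries, 2 per group, sequenced as 75-nucleotide pairs after a SMARTer low-input preparation, per the labels' protocols. Per the submitters' processing notes, STAR, Partek and the mm10 build were used; their versions were not given in the sources used here. Members, gene lists and tests were chosen with earlier results of these data known.

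The authors' deposited table gives, per the file headers, group means and a maximum of a signal, a difference on the natural log scale, a ratio, a p-value, a step-up FDR and, as scores, the total signal over libraries and the Akaike criterion of a lognormal model with shrinkage. It holds no column per library. The 2 group means, the maximum and the log difference fix 4 library values, with 1 solution for each of 47643 genes. The solved values matched RPKM per genomic span plus 0.1, divided again by depth and span. No header states this scale or the depths, which are inferences from the deposited values. As a check, the Akaike score ran from -88.7 to 73.3, and from 24.5 to 25.8 after the solved values were accounted for. Values were given to the library where reads came out whole, within 0.01 reads for both values of a group or 0.002 for a single value, plus 1e-07 of the reads and at most 0.05, or where swapping them would make reads negative. This settled 68.1% of the 17176 genes with at least 10 reads in 2 libraries. Of the members only the positive values of Hoxb2 were left unsettled. The solution and the assignment were tested on simulated data, built with the inferred scale and depths and with whole reads in every gene. That test therefore cannot check the inferred scale or depths, and real reads were not whole for every gene.

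The main test is the authors' deposited p-value and FDR, two-sided at 0.05. Limma 3.58.1 (R 4.3.3, with a mean-variance trend) on log2(RPKM + 1) of genes that passed the filter was the alternative. It was tested on simulated data, where it recovered 143 of 200 changes of 16-fold, and the trend was adopted from that test. The simulated libraries of a group shared 1 mean per gene, so they did not hold the spread seen between the TdTomato− libraries. Other alternatives were pseudocounts, no filter, each library left out and, chosen after seeing the data, exon length. Full values are given for members that passed the filter and were among the 12 highest by level or under an unadjusted p of 0.05; of other lists, for the 3 highest. Further genes are named for their place in a cluster. Homeoboxes were found in GENCODE vM21 transcripts by their conserved third-helix motif. A few items, 1 member of the figures among them, are not reported here. Share intervals are Wilson 95% intervals.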

Additional observations from a re-analysis of the deposited data

How the results depend on the processing

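The count of Hox genes past an FDR of 0.05 was 0 in the authors' deposited table and in limma with a pseudocount of 1 or 0.1, with no filter and with each library left out. At an unadjusted p under 0.05, limma held 2 members (7.54% of all genes fitted), 1 with a pseudocount of 0.1 (7.82%), 1 with no filter (3.31%), and between 1 (4.15%) and 6 (9.13%) with a library left out, Hoxd9 in each of these fits; with a library left out, the lone library is assumed to vary like the other group. The median log2 ratio of the Hox members was 0.41 in the authors' deposited table and -0.25 with no filter on reads. Leaving out the filter adds 13 members with reads that missed it and 7 without reads, which stand at -0.39. On group means of RPKM, without the second division by depth, it was 0.44 with a pseudocount of 1 and 1.05 with 0.1, and with each library left out in turn (pseudocount 0.1) it ran from 0.22, without the TdTomato+ library of 32.0 M reads, to 2.00, without the TdTomato− library of 17.0 M reads. The cofactor median of -0.29 was -0.02 on means of RPKM + 0.1 and ran from -0.21 to 0.0625 with a library left out, turning positive at 0.056 without the TdTomato+ library of 41.6 M reads and at 0.0625 without the TdTomato− library of 74.0 M reads; the cause was not tested. The log2 ratio of Hoxa9 was -0.54 in the authors' deposited table, 0.17 on means of RPKM + 0.1 and -0.46 to 1.15 with a library left out; that of Hoxb2 was -0.42, 0.59 and -0.29 to 3.25. Those of Hoxc9, Hoxc8 and Hoxa7 lay at -1.21, -0.03 and -0.49 without the TdTomato+ library of 32.0 M reads, so their direction rests on that library; that of Hoxb4 came close to 0, at 0.0355, without it. Those of Hoxc10, Hoxd8, Hoxd9, Hoxc6, Hoxa5, Hoxa10 and Hoxb4 stayed above 0 in 6 of 6 alternatives, at 1.34 to 5.46 for Hoxc10, 1.37 to 5.21 for Hoxd8, 0.86 to 3.21 for Hoxd9, 0.85 to 3.53 for Hoxc6, 0.73 to 2.45 for Hoxa5, 0.33 to 4.23 for Hoxa10 and 0.0355 to 1.62 for Hoxb4. Members whose libraries lay apart numbered 7, and 9 with no filter. No paired analysis was possible because the deposited values carry no collection number. A count of 0 still allows up to 3 reads, a limit that is highest in RPKM at 17.0 M reads, the lowest depth.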
